A study of Mus musculus with 119 samples.

Results

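Transcripts of bone marrow–derived macrophages (BMDMs) kept in the MEK inhibitor PD0325901 without LPS were compared after 70 and 10 min. PD0325901 is a small molecule that blocks MKK1/2 (MEK1/2), the kinases that activate ERK1/2. The members were the 3 libraries of 70 min and the 3 libraries of 10 min, 6 of the 119 libraries of the series, defined by their sample labels. Earlier results of these data were known when this comparison and the gene lists below were chosen. The 3 libraries of 40 min of PD0325901 served to order the changes in time. They also entered mean levels and the description of genes set apart at both 40 and 70 min. In addition, 3 libraries of 10 min of the solvent DMSO showed where the 10 min baseline stood. All 12 libraries were of WT cells of the strain C57BL/6(NIMR). The cells had been grown from bone marrow in L-cell conditioned medium and were moved overnight to medium with little serum before treatment. PD0325901 was used at 0.1 µM, and none of these cells received LPS. The rest of the series tested LPS in WT cells, in cells with mutations of TPL-2 signaling or of ternary complex factors, and with inhibitors. DMSO was sequenced at 10 min only, so a change between 10 and 70 min could belong to the inhibitor or to the longer time in culture, and these cannot be told apart.

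In macrophages ERK1/2 sit at the end of a kinase chain from RAF or TPL-2 through MKK1/2, and they phosphorylate transcription factors and the kinase RSK. Their activity keeps up a set of short-lived transcripts, among them *Fos*, *Egr1*, and genes that act back on the pathway, such as the ERK phosphatases of the DUSP family and the Sprouty and SPRED proteins. CSF1, the growth factor in L-cell conditioned medium, is one signal that drives this pathway in resting macrophages, and inhibitors of MEK are known to lower these feedback transcripts quickly in many cell types.

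Values were normalized levels on a log2 scale, and a difference of 1 on it is a 2-fold change if the scale is a plain log2. The 6 libraries compared carried the macrophage markers at high level throughout. All 11 of the macrophage markers were tested, none passed by limma with or without a trend, 1 had an unadjusted p below 0.05, and their summed linear level was 476728 to 489454 after 10 min and 460138 to 492348 after 70 min. Another list, of 19 macrophage identity genes, held 2 that were higher, *Cebpa* and *Cebpb* (10.5%, beside 2.62% of all genes). None of that list was lower without a trend and 1 was lower with it. The 6 libraries of 40 and 70 min stood apart in another way. Of the 18098 genes in the file, 227 were higher in each of these 6 libraries than in any of the other 113 libraries of the series, and all but 24 of them lay below the filter on low values. Many are known from neural and glial cells. That group of genes is described on its own further on, and its part in the other changes was not tested. The replicates are described in the methods as biological replicates, and the labels do not say whether they were separate cultures. The p-values rest on the spread between libraries within groups, taken over all 119 libraries of the series and not over the 6 compared alone. In bulk RNA, fewer cells of a type and less RNA per cell cannot be told apart.

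Of 11971 genes tested, 415 were lower after 70 min than after 10 min (3.47% of those tested) and 314 were higher (2.62%) at an adjusted p below 0.05 by limma. Most differences were small. The median was -0.27 among the lower genes and 0.38 among the higher genes, and the median over all genes tested was -0.00. A log2 difference of at least 1 was reached by 12 of the lower genes (0.100% of those tested) and 29 of the higher genes (0.242%). The 29 included many genes of low level: the count was 12 when genes had to reach 50 on the linear scale in 3 libraries, and 62 were counted without a filter. Of the 29, *Slc1a3*, *Igfbp2*, *Sparcl1*, *Olig1*, *Mest*, *Fat1*, *Nwd1*, and *Cspg5* reached the filter on low values only through the libraries of 40 and 70 min. They were tested because they were high there, so their part of the 29 is a description. The libraries of 10 and 70 min did not overlap for 408 of the 415 and 310 of the 314, beside 18.0% of all genes tested that were lower and 16.2% that were higher in every library. Against 10 min of DMSO, the same 70 min libraries had 317 genes lower (2.65%) and 249 higher (2.08%). Of the 415 lower and 314 higher genes, 247 and 191 also passed against DMSO in the same direction, and 414 and 314 had the same sign. With each library centered on its own median the split moved to 285 lower and 391 higher, that is 42.2% of calls lower in place of 56.9%, although the median difference of all genes moved only from -0.0015 to 0.0185. Leaving out a single library lowered the count of lower genes to 215 without replicate 2 and 225 without replicate 3 of 10 min, and to 237 without replicate 1 and 223 without replicate 2 of 70 min. The count of higher genes fell to 190, 176, 169, and 196 in the same 4 fits. A fit over the 9 libraries of PD0325901 without LPS instead gave 734 lower and 613 higher genes.

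No difference was detected after 10 min of PD0325901. No gene passed against 10 min of DMSO in either direction by limma (0.00% of those tested), and 245 had an unadjusted p below 0.05 (2.05% of those tested).

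The genes with the largest falls included known outputs and feedback inhibitors of ERK1/2 (plot of genes lower after 70 min). Others with large falls are not on the list of ERK feedback and output genes below: *Atp6v0c* (-1.60), *F630028O10Rik* (-1.41), *Ccl7*, *Ccl2*, *Neat1*, and *Rgs2*. *Dusp6*, which encodes a phosphatase specific for ERK1/2, lies at chr10:99263231-99267489 (GRCm38.p6). Its promoter and that of *Fos*, as a contrast in sequence between 2 strongly reduced genes, are shown from 250 bases before to 50 after the start site, from RefSeq on GRCm38.p6, chr10:99262981-99263280 and chr12:85473640-85473939, both on the plus strand. Capitals mark the cyclic AMP response element half-site TGACG and the TATA box TATAAA, searched on both strands together with the full element TGACGTCA, the AP-1 site TGANTCA, the E-box CACGTG, the ETS site CCGGAAGT, and the CArG box of serum response factor.

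Dusp6: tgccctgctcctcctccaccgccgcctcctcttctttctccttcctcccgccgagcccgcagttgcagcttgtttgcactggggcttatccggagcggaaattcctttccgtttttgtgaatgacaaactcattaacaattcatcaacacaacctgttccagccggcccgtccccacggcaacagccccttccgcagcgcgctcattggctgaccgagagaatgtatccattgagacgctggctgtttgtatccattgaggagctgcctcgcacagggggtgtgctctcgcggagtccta
Fos: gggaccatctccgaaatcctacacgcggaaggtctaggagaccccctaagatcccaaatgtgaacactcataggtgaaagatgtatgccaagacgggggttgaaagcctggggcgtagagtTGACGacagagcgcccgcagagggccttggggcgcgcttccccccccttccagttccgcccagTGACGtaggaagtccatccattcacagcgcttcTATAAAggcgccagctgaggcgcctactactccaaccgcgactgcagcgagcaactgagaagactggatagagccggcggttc

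In *Fos* TGACG began 129 and 66 bases before the start and TATAAA 33 bases before it. The *Dusp6* window held none of the motifs, which says only that these letters are not in it. TGACG was present in 41.2% of the 311 promoters available for lower genes, 37.1% of the 232 for higher genes, and 36.0% of the 9215 for all genes tested. The share with the ETS site was 14.5% of lower, 6.90% of higher, and 9.53% of all promoters, but 3.57% (1 of 28) among the 50 genes with the largest falls and 10.1% among higher genes with a mean level of at least 7. The share with a CArG box was 0.643% of lower, 1.29% of higher, and 1.47% of all promoters. These shares are descriptions.

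*Dusp6* was at 9.69, 9.64, and 9.75 in the 3 libraries of 10 min, 8.58, 8.58, and 8.56 after 40 min, and 7.79, 7.46, and 7.58 after 70 min. Each time point lay apart from the one before, and the fall was 4.23-fold (difference -2.08, SE 0.12, adjusted p = 6.35e-28 by limma). *Rgs1*, which encodes a brake on G protein signaling, was at 12.47, 12.56, and 12.55 after 10 min and 10.52, 10.60, and 10.58 after 70 min. It fell 3.91-fold (SE 0.10 on the log2 scale, adjusted p = 1.77e-32), to a level below each of the 113 libraries of other groups, where the lowest was 11.93. *Myc*, which encodes a growth-promoting transcription factor, went from 9.76, 9.77, and 9.70 to 8.17, 8.01, and 7.86. That was 3.31-fold lower without overlap (SE 0.09, adjusted p = 9.03e-33). *Dusp4*, encoding a nuclear ERK phosphatase, was at 9.60, 9.54, and 9.71 after 10 min and at 8.54, 8.53, and 8.46 after 70 min, a 2.15-fold fall (adjusted p = 1.86e-15).

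Further falls were in another gene of G protein signaling, a secreted protease, and a noncoding RNA. *Rgs2*, a relative of *Rgs1*, was at 12.91, 12.93, and 12.89 after 10 min and at 11.77, 11.81, and 11.91 after 70 min (2.11-fold lower, adjusted p = 2.97e-12). Its libraries of 10 and 70 min did not overlap. *Plau*, encoding urokinase, a protease that activates plasminogen, was 1.82-fold lower, from 13.40, 13.46, and 13.41 to 12.58, 12.54, and 12.55 (adjusted p = 4.59e-09). *Neat1*, a nuclear long noncoding RNA, was at 13.84, 13.96, and 13.51 after 10 min and at 13.10, 12.50, and 12.36 after 70 min (2.17-fold lower, adjusted p = 0.0355). It was at 13.39, 12.78, and 12.91 with DMSO, which overlaps the 70 min libraries, and it passed in 1 of the 6 fits that left out a library.

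**Figure D1:**
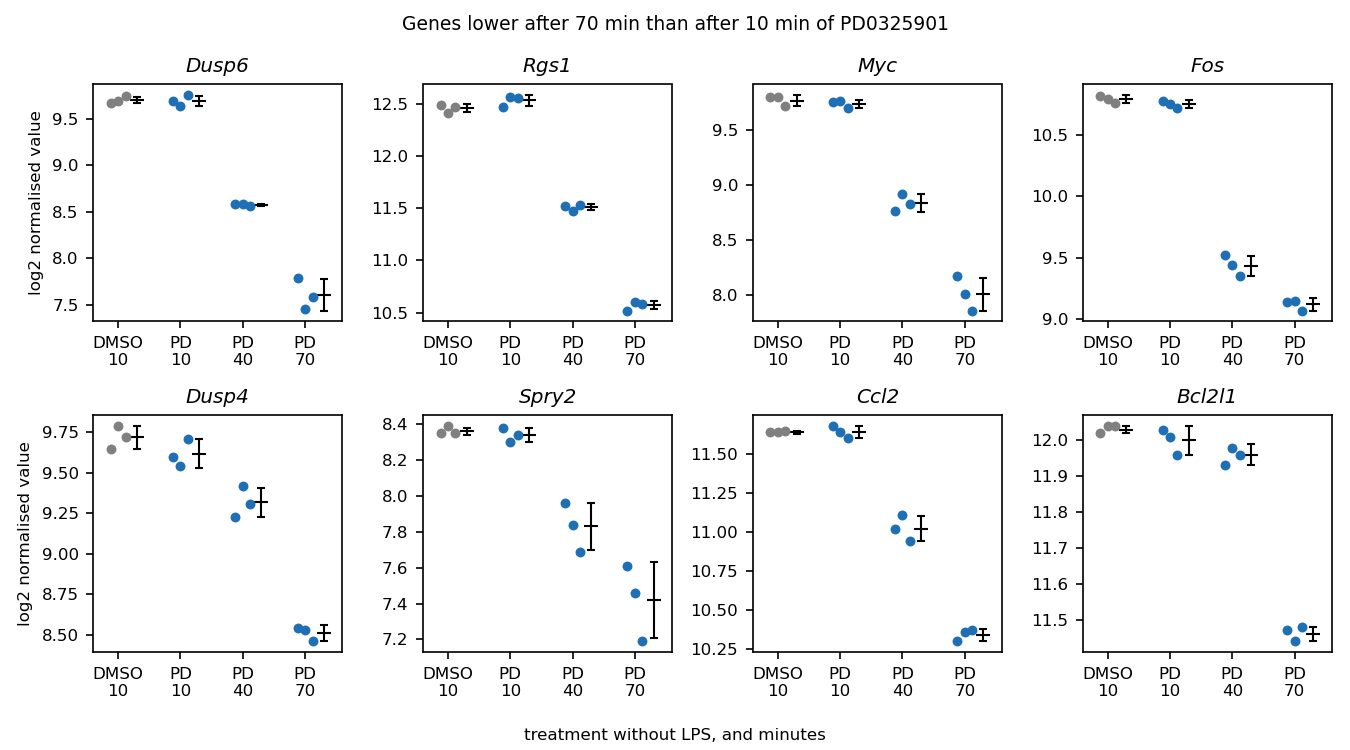
Levels of 8 genes that were lower after 70 min of PD0325901, with the log2 normalised value on each vertical axis and 10 min of DMSO, then 10, 40, and 70 min of PD0325901 along the horizontal axis, all without LPS. Points are the 3 libraries of each group and the bar beside them is their mean with its SD. *Dusp6*, *Rgs1*, and *Myc* step down at both later times, *Fos* has most of its fall at 40 min, and *Bcl2l1* falls between 40 and 70 min.

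The remaining members of the ERK list give the breadth of this change. Of the 20 ERK feedback and output genes tested, 9 were lower (45%, beside 3.47% of all genes) and 1 was higher, with a median difference of -0.30. Besides those above the lower genes were *Spry2*, encoding a Sprouty inhibitor of receptor signaling, *Spred1*, encoding a RAS-RAF inhibitor, *Phlda1*, *Egr1*, and *Plaur*, the receptor of urokinase. *Spry2* was at 8.38, 8.30, and 8.34 after 10 min and at 7.61, 7.46, and 7.19 after 70 min (1.89-fold lower, adjusted p = 1.66e-11). *Egr1*, encoding a zinc finger factor induced by growth signals, was at 7.96, 7.70, and 7.74 and then 7.05, 6.74, and 6.88 (1.88-fold lower, adjusted p = 0.00134). *Spred1* (difference -0.32) and *Plaur* (-0.34) lost their calls when 1 of several libraries was left out, with adjusted p up to 0.0968 and 0.101. *Spry1*, a relative of *Spry2*, moved the other way and was at 4.28, 4.20, and 4.13 after 10 min and at 5.37, 4.88, and 4.97 after 70 min (1.83-fold higher, adjusted p = 4.68e-05). The ETS factor gene *Etv5* (-0.27, adjusted p = 0.0953) and the cyclin gene *Ccnd1* (-0.28, adjusted p = 0.36) did not pass by limma over all 119 libraries. Neither overlapped between 10 and 70 min, as for 18.0% of all genes tested that were lower. *Ccnd1* was at 13.27, 13.27, and 13.26 after 10 min and at 12.99, 13.02, and 12.95 after 70 min, beside an SE of 0.16 in that fit. *Spry4*, *Etv4*, and *Epha2* were below the filter on low values, and *Spry4* and *Etv4* were among the 227 genes higher in the 6 libraries of 40 and 70 min than in any other (lowest of the 6 at 1.14 and 0.21, highest other at 0.88 and -0.04).

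The immediate early list split. Of 31 genes tested 4 were lower and 4 higher (12.9% each, beside 3.47% and 2.62% of all genes), and the median was 0.08. *Fos*, which encodes an AP-1 subunit, was at 10.77, 10.75, and 10.72 after 10 min, 9.52, 9.44, and 9.35 after 40 min, and 9.14, 9.15, and 9.07 after 70 min (3.09-fold lower than at 10 min, SE 0.15, adjusted p = 1.86e-15). *Jun*, encoding its partner, was at 12.04, 11.99, and 11.98 and then at 11.38, 11.31, and 11.37 (1.57-fold lower, adjusted p = 1.04e-06), and *Egr3* was 1.82-fold lower. *Jund* and *Junb*, encoding other AP-1 subunits, were higher, whereas *Fosb* (-0.01), *Fosl1* (-0.07), and *Atf3* (0.23) did not pass. *Jund* was at 11.99, 11.84, and 11.74 after 10 min and at 12.38, 12.31, and 12.18 after 70 min, which is 1.35-fold higher (adjusted p = 0.000484), and *Junb* was 1.24-fold higher with an adjusted p of 0.0384 and passed in 1 of the 6 fits without 1 library (adjusted p up to 0.198). *Gadd45b*, a stress-induced growth arrest gene, was 1.82-fold higher (10.28, 10.22, and 10.23, then 11.15, 11.13, and 11.06, adjusted p = 1.67e-12), and *Ier5* was 1.18-fold higher (adjusted p = 0.0188), a call kept in 4 of the 6 fits without 1 library. The relatives of *Gadd45b*, *Gadd45a* and *Gadd45g*, were higher by 0.45 and 0.64 on the log2 scale, and they were looked up after their values were seen.

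Among inflammatory genes the calls were mainly in 4 chemokine genes. Of 23 genes of the NF-κB inflammatory list, 5 were lower (21.7%, beside 3.47% of all genes) and none higher. Of all 21 Ccl and Cxcl genes tested, a family counted after its values were seen, 4 were lower, at a median of 0.01. Of these, 4 encode CC chemokines that attract monocytes and other leukocytes. *Ccl2* was at 11.68, 11.64, and 11.60 after 10 min and at 10.30, 10.36, and 10.37 after 70 min (2.45-fold lower, adjusted p = 1.47e-12), and *Ccl7* was at 10.15, 10.22, and 10.17 and then at 8.79, 8.80, and 8.88 (2.56-fold lower, adjusted p = 2.86e-10). *Ccl4* was 1.75-fold lower and *Ccl3* 1.56-fold lower, and neither overlapped between 10 and 70 min. The fifth, *Nfkbie*, encoding an inhibitor of NF-κB, was 0.37 lower on the log2 scale. *Tnf* was at 11.65, 11.65, and 11.64 after 10 min and at 11.35, 11.38, and 11.35 after 70 min, without overlap, and its difference of -0.29 did not pass (adjusted p = 0.128). No interferon-stimulated gene of 21 passed with limma, with or without a trend, and none had an unadjusted p below 0.05, at a median of -0.16.

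The 40 min libraries ordered these changes. Against 10 min, 271 genes were lower at 40 min (2.26%) and 158 higher (1.32%), 429 in all (3.58%). Against 40 min, 19 were lower at 70 min (0.159%) and 16 higher (0.134%). A fit over the 9 libraries of PD0325901 without LPS gave 69 and 71 at 70 against 40 min, and 459 and 336 at 40 against 10 min. The comparisons of 40 and 70 min share the 10 min libraries, so their values are given side by side only, in the plot of 40 against 70 min.

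**Figure D2:**
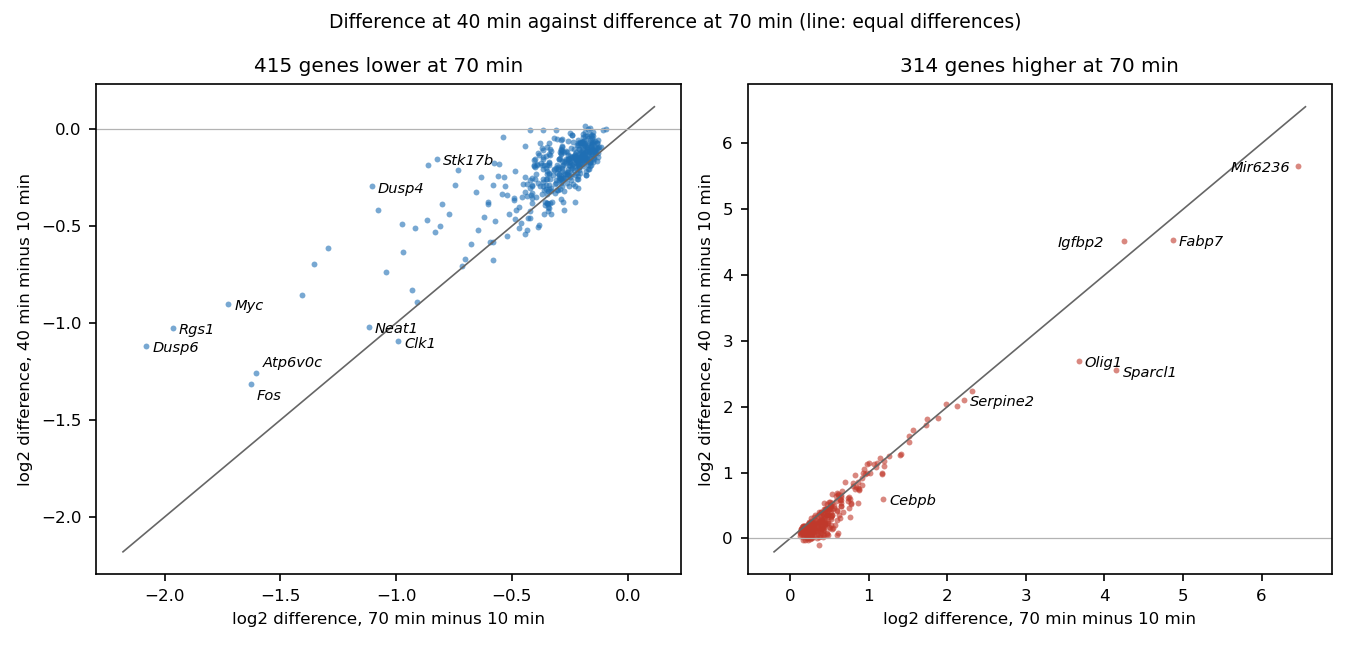
Difference at 40 min (vertical, log2, 40 min minus 10 min) against difference at 70 min (horizontal, log2, 70 min minus 10 min) for the 415 genes lower (left) and the 314 genes higher (right) at 70 min. Each point is a gene, the line marks equal differences, and *Stk17b*, at -0.15 at 40 min and -0.82 at 70 min, lies far from it.

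Genes differed in the interval in which they passed in the fit over all 119 libraries, and whether the intervals differed was not tested. *Fos*, *Egr1*, *Phlda1*, and *Clk1*, which encodes a splicing kinase, passed at 40 min and did not pass between 40 and 70 min. *Clk1* was at 10.31, 10.26, and 10.27 after 10 min, 9.19, 9.15, and 9.22 after 40 min, and 9.38, 9.23, and 9.25 after 70 min. *Dusp6*, *Rgs1*, *Myc*, *Ccl2*, *Ccl7*, and *Rgs2* passed in both intervals. *Dusp4*, *Stk17b*, *Ets2*, and *Bcl2l1* did not pass at 40 min and passed between 40 and 70 min, with differences in that interval of -0.81, -0.67, -0.52, and -0.50. *Ets2*, an ETS factor gene, was at 10.58, 10.61, and 10.61 after 10 min, 10.34, 10.42, and 10.40 after 40 min, and 9.86, 9.87, and 9.87 after 70 min. Other genes came back. *Trib1*, encoding a pseudokinase, was 0.60 higher at 40 min (adjusted p = 3.83e-05) and 0.56 lower again at 70 than at 40 min (-0.56, adjusted p = 0.000957), and *Bhlhe40*, encoding a repressor of transcription, was 0.46 lower and then 0.52 higher (adjusted p = 0.00549 and 0.00706).

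The Bcl2 family, which sets the threshold for cell death, held changes in both directions (plot of genes higher after 70 min). Of 15 Bcl2 family genes tested, 3 were higher (20%, beside 2.62% of all genes) and 1 lower (6.67%, beside 3.47%). *Bcl2l1*, encoding the survival protein BCL-xL, was at 12.03, 12.01, and 11.96 after 10 min, 11.93, 11.98, and 11.96 after 40 min, and 11.47, 11.44, and 11.48 after 70 min (1.45-fold lower than at 10 min, adjusted p = 6.25e-10). The 3 higher genes encode the BH3-only death inducers BIM, BMF, and PUMA. *Bcl2l11* (BIM) was at 11.82, 11.78, and 11.76 after 10 min and at 12.16, 12.18, and 12.17 after 70 min (1.30-fold higher, adjusted p = 1.22e-05), and its rise also came after 40 min (0.34 between 40 and 70 min, adjusted p = 0.00172). *Bmf* was 0.43 and *Bbc3* (PUMA) 0.38 higher, and both lost their calls in fits without 1 library, with adjusted p up to 0.0807 and 0.133.

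**Figure D3:**
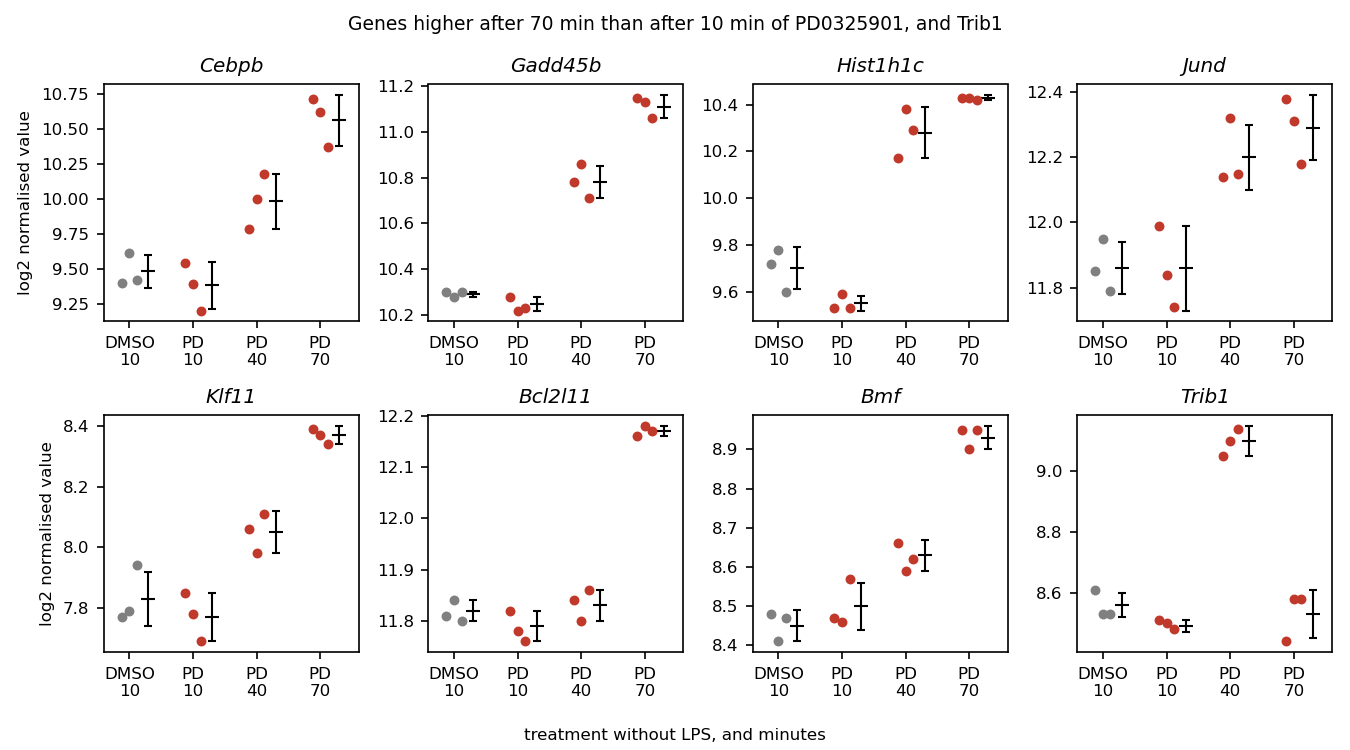
Levels of 7 genes that were higher after 70 min of PD0325901, and *Trib1*, with axes, points, and bars as in the plot of lower genes. *Klf11* passed in both intervals, *Cebpb* and *Gadd45b* passed at 40 and 70 min against 10 min and not at 70 against 40 min, *Bcl2l11* passed after 40 min, and *Trib1* is high at 40 min only.

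Of the higher genes with a mean level of at least 7 over the 9 libraries of PD0325901 without LPS, *Cebpb* had the largest difference after *Serpine2*. It encodes a C/EBP transcription factor of inflammatory and alternative activation, lies at chr2:167688915-167690432, and was at 9.54, 9.39, and 9.20 after 10 min, 9.78, 10.00, and 10.18 after 40 min, and 10.71, 10.62, and 10.37 after 70 min. The rise was 2.27-fold (SE 0.16, adjusted p = 2.71e-08). *Cebpa*, a relative, was 0.37 higher, and its call was lost in fits without 1 library (adjusted p up to 0.14). *Hist1h1c*, encoding a linker histone, was 1.84-fold higher (9.53, 9.59, and 9.53, then 10.43, 10.43, and 10.42), *Cirbp*, encoding a cold-inducible RNA-binding protein, was 0.75 higher, and *Slc30a1*, a zinc exporter gene, was 0.61 higher. *Klf11* (0.60) and *Klf9* (0.51), which encode zinc finger factors, and *Sik1* (0.50), a kinase gene induced by cyclic AMP, were also higher. *Sik1*, *Sgk1*, and *Klf9* were the 3 of 10 cyclic AMP and glucocorticoid targets that passed (30%, beside 2.62% of all genes), and *Sgk1* passed in 2 of the 6 fits without 1 library.

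The other lists held few calls (plot of gene lists). *Hmgcs1*, encoding an enzyme of cholesterol synthesis, was lower by 0.46 (adjusted p = 0.00532). Of the 19 genes of that list 2 passed, both lower (10.5%, beside 3.47% of all genes), and 15 were lower without overlap, beside 18.0% of all genes tested, at a median of -0.21. Of 11 heat shock genes *Hspa8*, *Dnaja1*, and *Dnajb1* were lower (27.3%, beside 3.47% of all genes), and *Hspa8* went from 16.03, 16.04, and 16.04 to 15.68, 15.68, and 15.72 (adjusted p = 1.96e-08). Of 15 genes of the integrated stress response *Chac1*, *Vldlr*, and *Ppp1r15a* were higher (20%, beside 2.62% of all genes), at a list median of 0.17. In fits without 1 library *Chac1* and *Dnajb1* each passed in 3 of 6. *Bcl6*, a repressor gene also under FOXO control, was lower by 0.56 (adjusted p = 4.97e-07). Of 21 genes encoding components of the MAPK pathway, only *Map3k8* (TPL-2 itself) passed (4.76%, beside 2.62% of all genes that were higher). It was 0.29 higher, and in each of the 6 fits without 1 library it did not pass. No gene passed among 13 cytoskeletal targets of SRF, 26 lysosomal genes, 9 NRF2 targets, 16 hypoxia and glycolysis genes, and 16 genes of ribosome biogenesis, with limma with or without a trend. At an unadjusted p below 0.05, which 17.1% of all genes tested reached, these lists held 1, 2, 0, 0, and 0 genes.

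**Figure D4:**
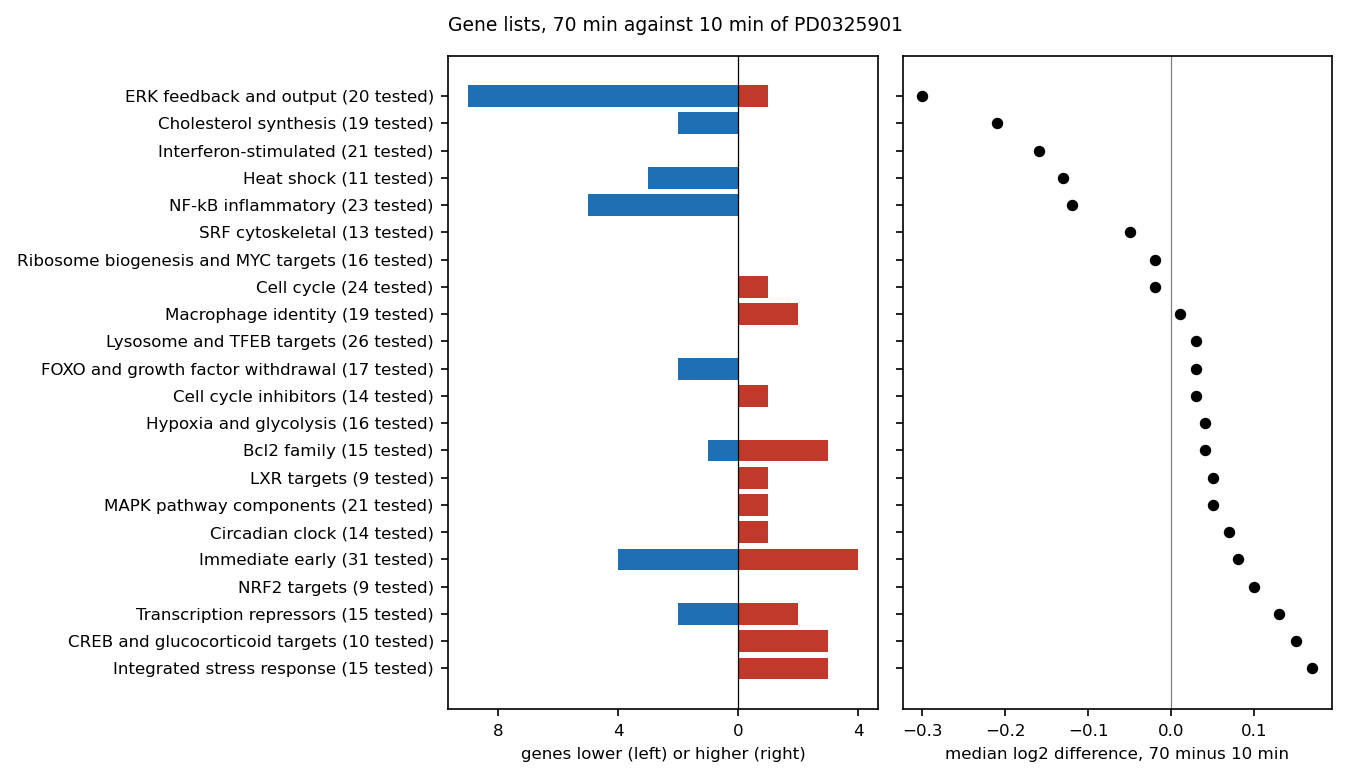
Gene lists at 70 against 10 min of PD0325901, with the number of genes that passed to the left (lower) and right (higher) in the first panel and the median log2 difference of the genes tested in the second. The ERK feedback and output list has the most lower genes, 9 of 20, and the lowest median, -0.30.

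The small falls included zinc finger genes. Of 314 genes whose symbols begin with Zfp, 36 were lower (11.5%, beside 3.47% of all genes) and 7 higher (2.23%, beside 2.62%), a family counted after its values were seen. Transcripts of lower genes had a median GC content of 45.0% and of higher genes 55.0%, beside 49.5% for all genes tested, with median lengths of 3566, 3238, and 3372 bases. With a correction for GC content in a fit over the 9 libraries of PD0325901 without LPS, 55 Zfp genes were lower (17.5% of them), beside 891 of all 11971 genes tested. Without it in the same libraries 50 Zfp genes were lower (15.9%), beside 734 of all genes. The total was 415 in the fit over all 119 libraries, so more genes of every kind passed in these 2 fits. Of the 9211 genes tested with a mean level of at least 7, 4.08% were lower and 2.08% higher, and of the 2760 below it 1.41% were lower and 4.42% higher.

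Among the largest rises were genes at low level after 10 min, several of them known from neural and glial cells. *Fabp7*, encoding a fatty acid carrier of radial glia, lies at chr10:57784923-57788450 and was at 3.13, 2.70, and 2.89 after 10 min, 8.13, 7.13, and 7.07 after 40 min, and 8.20, 7.57, and 7.54 after 70 min. The rise was 29.2-fold (SE 0.19 on the log2 scale, adjusted p = 1.42e-41), and the highest of the 113 other libraries was 4.41. *Slc1a3*, a glutamate transporter gene of astrocytes, was at 1.81, 1.77, and 1.51 and then at 4.23, 4.01, and 3.79 (2.31 higher), and *Gpm6b*, encoding a neural membrane protein, was 1.99 higher. *Serpine2*, encoding a protease inhibitor, was at 5.51, 5.57, and 5.65 and then at 8.08, 7.69, and 7.59 (4.62-fold higher). Part of the difference of 3 others came from 1 library. *Igfbp2* was at 4.43, 3.75, and 7.14 after 40 min and at 3.31, 3.56, and 7.63 after 70 min, so that replicate 3 was high at both times, and its difference of 4.25 was 2.85 without replicate 3. *Sparcl1* was at 8.07, 3.52, and 3.13, and its difference of 4.15 was 2.57 without replicate 1. *Olig1*, encoding an oligodendrocyte factor, was at 6.70, 3.39, and 3.18, and its 3.67 was 2.53 without replicate 1. In the other 113 libraries *Slc1a3*, *Igfbp2*, *Sparcl1*, and *Olig1* reached at most 2.91, 1.06, 1.06, and 0.97, below the filter on low values. *Mest*, *Fat1*, *Nwd1*, and *Cspg5*, which also rose by at least 1, reached at most 2.30, 2.82, 2.94, and 2.96 there, again below the filter. The genes below the filter in those libraries were tested only through the 40 and 70 min libraries, so their rises are descriptions.

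*Mir6236*, annotated as a microRNA gene at chr9:110281287-110281409, had the largest difference of all genes tested. Its mature sequence from RefSeq (GRCm38.p6, chr9:110281353-110281371, plus strand) is shown with the seed, bases 2 to 8, in capitals. The RNA-seq value is for reads assigned to this annotation and not for the mature microRNA. Which RNA these reads came from was not tested, so the value does not show that a microRNA gene was induced.

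mmu-miR-6236: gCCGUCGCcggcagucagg

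It was at 2.68, 2.60, and 2.42 after 10 min, 7.39, 8.13, and 9.13 after 40 min, and 8.68, 8.94, and 9.44 after 70 min, a difference of 6.46 (SE 0.31, adjusted p = 1.79e-33). *Mir6236* was also high in the libraries of the RSK inhibitor RSKi47, where it reached from 4.80 to 10.89. With RSKi47 *Fabp7* was at 3.19 to 4.41 and *Igfbp2* at 0.63 to 0.68. *Atp6v0c*, encoding a subunit of the vacuolar proton pump, was low in the same libraries, at 9.97 to 10.67 with RSKi47, and at 12.58, 12.55, and 12.75 after 10 min and 11.18, 11.12, and 10.77 after 70 min of PD0325901 (difference -1.60, adjusted p = 1.43e-10). The plot of levels by group shows these levels.

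**Figure D5:**
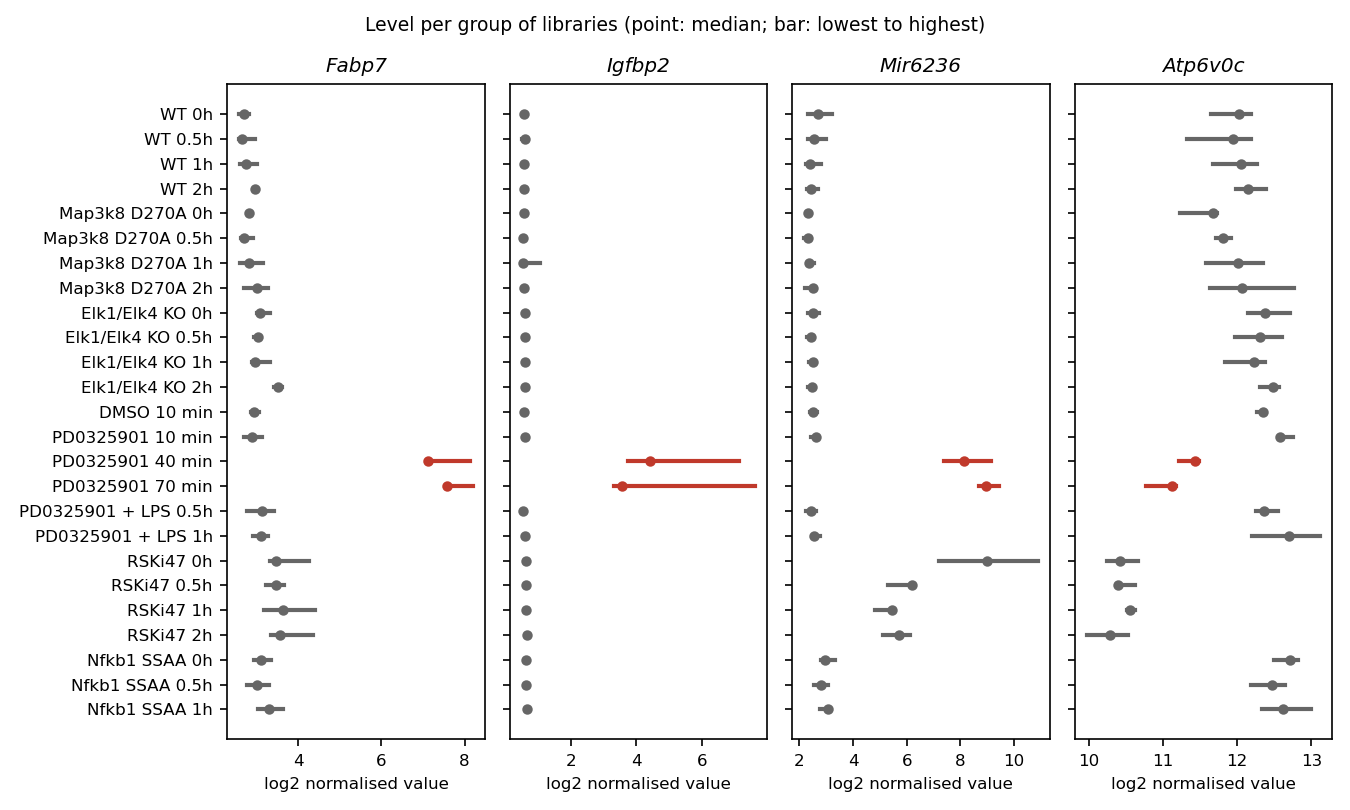
Level of 4 genes in each group of libraries of the series, with the log2 normalised value on the horizontal axis, the median as a point, and the lowest to highest library as a bar, and the 40 and 70 min libraries of PD0325901 in red. *Fabp7* and *Igfbp2* are high in those 6 libraries alone, whereas *Mir6236* and *Atp6v0c* also stand apart with RSKi47.

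Of the 227 genes whose 6 libraries lie above all others, 24 were tested, some of which reached the filter only through those 6 libraries. Their being higher at 70 min was fixed by how they were picked, and 23 of them are among the genes counted as higher, 21 of the 122 with a mean level below 7 and 2 of the 192 at or above it. A list of 30 neural and glial genes, chosen after values were seen, had a summed linear level of 3596 to 3770 after 10 min, 4148 to 4669 after 40 min, and 3896 to 4786 after 70 min. That lies within the range of the other libraries, 1855 to 5037, and most of the sum comes from *Nes* and *Aldoc*, which did not pass. Without these 2 genes the summed level was 157.1 to 162.6 after 10 min, 471.2 to 705.1 after 40 min, and 544.0 to 1076 after 70 min, beside 135.0 to 322.1 in the other libraries. Since the list was chosen for this pattern, these sums are a description. Of the Schwann and glial markers, 6 of 15 were tested and 1 (*Fabp7*) was higher (beside 2.62% of all genes), while *Sox10*, *S100b*, *Ncam1*, and *Gfap* lay below the filter. Of these, *S100b* and *Ncam1* were among the 227 genes (lowest of the 6 at 1.04 and 2.26, highest other at 0.49 and 1.60), and *Sox10* and *Gfap* were not. The summed level of that list was 2555 to 2638 after 10 min and 2812 to 2948 after 70 min, beside 2090 to 2971 in the other libraries. Of 8 neutrophil markers tested, 2 were higher (beside 2.62% of all genes), *S100a8* by 0.80 and *Ltf* by 0.98, and neither passed at 70 min against DMSO (adjusted p = 0.298 and 0.294 by limma). The summed level of that list was 1066 to 1152 after 10 min and 1162 to 1282 after 70 min, beside 1091 to 1262 with DMSO and 544.3 to 3174 in the other libraries. Whether other cells or RNA entered these libraries was not tested. In the other direction, 13 genes were lower in the 6 libraries than in all others, so their direction was again fixed by how they were picked. Of these 13, 4 passed: *Rgs1*, *Tiparp* (-0.57), *Cnot4* (-0.29), and *Acbd3* (-0.16). The others, among them *Tnf*, *Cxcl2*, *Nfkbia*, and *Tnfaip3*, did not.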

How the data were processed

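RNA of 119 BMDM libraries was sequenced, of which 6 were compared, 6 more set the time course and the solvent baseline, and all entered the fit. The submitters' processing notes name STAR 2.5.1b, RSEM 1.2.29, DESeq2 1.10.1, and the build mm10. The authors deposited normalized log2 values for 18098 genes (-2.40 to 19.81). Their transformation is not stated, so depth is unknown and a log2 difference may understate a fold. A single value above 25 was treated as missing.

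The moderated test of limma 3.58.1 (R 4.3.3) was run without a trend on all 119 libraries, with a mean per group (94 residual degrees of freedom). The 11971 genes that reached 10 on the linear scale in 3 libraries were tested, with Benjamini-Hochberg adjustment and a threshold of 0.05. Genes named were the 15 largest differences in each direction without overlap, the tested genes of the ERK and immediate early lists, and up to 4 genes that passed from each other list. Others, such as *Bhlhe40*, *Tnf*, *Stk17b*, *Klf11*, and *Slc30a1*, were named after their values were seen. The members and lists were chosen with earlier results of these data known. On simulated data for 70 against 10 min, limma recovered 50% of 50 genes changed by 0.3, 84% at 0.5, and 100% at 1. Some genes that the rule names are not reported here.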

Additional observations from a re-analysis of the deposited data

How the results depend on the processing

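No gene that passed at 70 against 10 min changed direction under the alternative fits and filters below in which it was tested (79 were not at a linear value of at least 50). The counts at 70 against 10 min moved with the libraries fitted. Lower and higher genes numbered 734 and 613 in a fit over the 9 libraries of PD0325901 without LPS, 682 and 579 over the 6 libraries of 10 and 70 min, 777 and 653 with the replicate block over 9 libraries, and 891 and 706 with the GC correction over 9 libraries, which changed the values too and was added after seeing the data. By overlap alone they numbered 2158 and 1938. Without a filter on low values 1004 genes were higher, and 62 by at least 1. At a linear value of at least 50, 12 genes were higher by at least 1. With the natural logarithm of 2 as the limit, 29 were lower and 55 higher. Leaving out 1 library gave 215 to 330 lower and 169 to 267 higher genes. At 40 against 10 min the counts were 459 and 336 over 9 libraries, 482 and 343 with the block, and 418 and 328 with the GC correction, and at 70 against 40 min 69 and 71, 52 and 46, and 122 and 137. Of the 70 named genes that passed, 55 passed in every fit without 1 library. The others were *Neat1*, *Spred1*, *Plaur*, *Junb*, *Ier5*, *Map3k8*, *Cebpa*, *Cdt1*, *Bmf*, *Bbc3*, *Chac1*, *Dnajb1*, *Per1*, *Sgk1*, and *Id2*, with adjusted p up to 0.339 (*Cdt1*). Over genes as a whole, replicate numbers did not clearly pair the libraries: correlations of same-numbered deviations ran from -0.12 to 0.29. Some genes set apart at 40 and 70 min did keep their order of replicates. *Serpine2* was at 7.96, 7.58, and 7.51 after 40 min and at 8.08, 7.69, and 7.59 after 70 min. *Igfbp2* was highest in replicate 3 at both times. The inhibitor cannot be told apart from time in culture, since DMSO was sequenced at 10 min only.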
